A study of Mus musculus with 6 samples.

Results

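The genes described here encode the enzymes that cut, trim, extend and rejoin antigen receptor genes: Rag1, Rag2, Dntt, Lig4, Xrcc4, Xrcc5, Xrcc6, Prkdc, Dclre1c and Nhej1. They were chosen by name. A gene was measured where a probe set carried its symbol and no other, and where several did, the one brightest on average across the 6 arrays gave the value. Of the 10 genes, 9 were measured, by 12 probe sets, among 17097 genes and 45037 probe sets in all. Dclre1c was not analysed here, because no probe set was annotated to it alone. Pro-B cells, the bone marrow precursors in which the immunoglobulin heavy chain gene is assembled, had been sorted as B220+CD43+IgM- cells and hybridised to Affymetrix perfect-match arrays. The groups were 3 arrays of cells labelled HDAC7 deficient, from conditional mice, and 3 arrays of cells labelled wild type, with biological triplicates stated by the submitters. The driver of the deletion, the exons removed, and the age and sex of the mice are not stated in the labels.

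V(D)J recombination begins when the RAG1 and RAG2 proteins together cut DNA beside antigen receptor gene segments, leaving hairpin ends and blunt signal ends. RAG1 holds the active site, and RAG2 carries a finger that binds a methylated histone. The Ku70 and Ku80 proteins (Xrcc6 and Xrcc5) clasp the ends and recruit the kinase DNA-PKcs (Prkdc), the nuclease Artemis (Dclre1c) opens the hairpins, terminal transferase (Dntt) adds bases without a template, and ligase IV (Lig4), with XRCC4 and XLF (Nhej1), seals the joint. Rag1, Rag2 and Dntt are active in developing lymphocytes, whereas the end-joining genes serve DNA repair in nearly all cells.

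Rag1 and Rag2 are neighbours on chromosome 2 and are transcribed towards each other. Their promoter windows, and that of Dntt on chromosome 19, are shown because these are the lymphocyte-restricted members. The sequences are RefSeq's for GRCm38.p6, 250 bases before to 50 bases after the start. Capitals mark matches to any of 5 motifs searched on both strands.
Rag1, chr2:101649483-101649782, minus strand: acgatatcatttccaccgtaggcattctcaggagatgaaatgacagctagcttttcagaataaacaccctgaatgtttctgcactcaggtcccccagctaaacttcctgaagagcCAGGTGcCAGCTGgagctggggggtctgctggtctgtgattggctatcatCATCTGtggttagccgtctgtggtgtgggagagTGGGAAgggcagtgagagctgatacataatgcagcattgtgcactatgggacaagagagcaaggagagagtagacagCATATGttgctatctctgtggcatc
Rag2, chr2:101624462-101624761, plus strand: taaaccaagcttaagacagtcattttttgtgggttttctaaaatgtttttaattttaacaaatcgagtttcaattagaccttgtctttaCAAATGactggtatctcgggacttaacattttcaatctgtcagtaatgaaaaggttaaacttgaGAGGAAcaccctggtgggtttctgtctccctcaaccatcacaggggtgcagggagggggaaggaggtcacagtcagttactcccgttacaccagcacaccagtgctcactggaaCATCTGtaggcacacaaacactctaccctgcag
Dntt, chr19:41029025-41029324, plus strand: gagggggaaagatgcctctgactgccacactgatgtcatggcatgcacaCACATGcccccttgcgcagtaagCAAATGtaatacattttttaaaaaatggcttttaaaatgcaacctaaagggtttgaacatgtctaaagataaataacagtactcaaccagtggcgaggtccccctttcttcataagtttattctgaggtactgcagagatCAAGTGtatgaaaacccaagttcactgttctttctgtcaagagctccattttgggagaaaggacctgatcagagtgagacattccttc

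The motif CANNTG, the E-box read by E proteins such as E2A, occurred 4 times in the Rag1 window, at positions -135, -128, -85 and 26 from the start, 2 times in the Rag2 window and 3 times in the Dntt window. At least 1 E-box stood in 72.3% of 32841 promoter windows of the same length. The Ikaros core TGGGAA occurred once in Rag1, at -52, and in 25.6% of windows. The PU.1 core GAGGAA occurred once in Rag2, at -97, and in 28.3% of windows. Neither the forkhead motif TGTTTAC (3.65% of windows) nor the MEF2 motif (3.69%) occurred in these 3 windows, and no searched motifs overlapped there. Prkdc had no window in the promoter set and was not searched. Among the other members, the MEF2 motif was found 1 time, in the window of Dclre1c, and the Xrcc4 window held none of the 5 motifs. These matches describe the letters alone.

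Hdac7, the targeted gene, read 9.95, 9.54 and 9.27 (log2 signal) on the arrays labelled HDAC7 deficient and 9.06, 9.48 and 7.31 on the wild-type arrays. Its signal was thus not reduced in cells of that label, and since the position of the probes relative to the deletion is not known here, it does not check the labels. Of 11 measured B cell precursor markers, Vpreb1, a surrogate light chain gene, and Cd79a, a receptor signalling chain, read 8.34 or more on every array. Kit, another of them, read only 5.15 to 6.05. Igll1 and Il7r were not analysed here. Myeloid markers were also bright on every array, with Mpo at 9.92 to 11.98 and S100a9 at 11.05 to 11.90, while Csf1r read 6.7 to 7.18. The purity of the sorted cells was not tested. Wild-type replicate 3 stood apart, with correlations of 0.70 to 0.82 to the other arrays and a 3' excess of its Actb signal over the middle probe set of 1.69, against 0.16 to 0.26 elsewhere. Arrays also fell into a pair of sets that cross genotype: HDAC7-deficient replicates 2 and 3 and wild-type replicate 3 were high in both Xist and the hybridisation spike-ins (Xist-high), and the other 3 arrays were low in both (Xist-low). Xist was intermediate on wild-type replicate 3, at 8.51. It read 11.4 and 11.27 on HDAC7-deficient replicates 2 and 3, and 4.88 to 5.39 on the Xist-low arrays. Results are therefore given with and without wild-type replicate 3.

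No recombinase or end-joining gene differed between genotypes at a limma adjusted p of 0.05. The adjusted p-values of the 9 measured genes ran from 0.394 to 0.838, and the share of all genes called was 0%. Group differences, as HDAC7 deficient minus wild type on the log2 scale, were positive for 6 genes and negative for 3, with a median of 0.15 against -0.03 for all genes, of which 48% were positive. Without wild-type replicate 3 they were positive for 3 and negative for 6, with a median of -0.15 against -0.05 for all genes, of which 43.2% were positive, and again 0 passed, as for 0% of all genes. The median of all genes depended on brightness. From the dimmest to the brightest of 4 groups of genes divided by mean signal, it was -0.30, -0.38, 0.25 and 0.56. Without wild-type replicate 3 it was -0.11, -0.18, 0.08 and 0.06. Of the measured members only Lig4 and Prkdc lay in the groups with negative medians. At an unadjusted p under 0.05 there were 0 of the 9 in either fit, where 12.7% of all genes, or 14% without that array, reached this level. The groups overlapped for all 9 genes; they did not overlap for 26.3% of all genes (9.45% higher and 16.8% lower in HDAC7 deficient), or 30.7% without wild-type replicate 3 (11.8% higher and 19% lower), when all 9 members again overlapped.

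**Figure D1:**
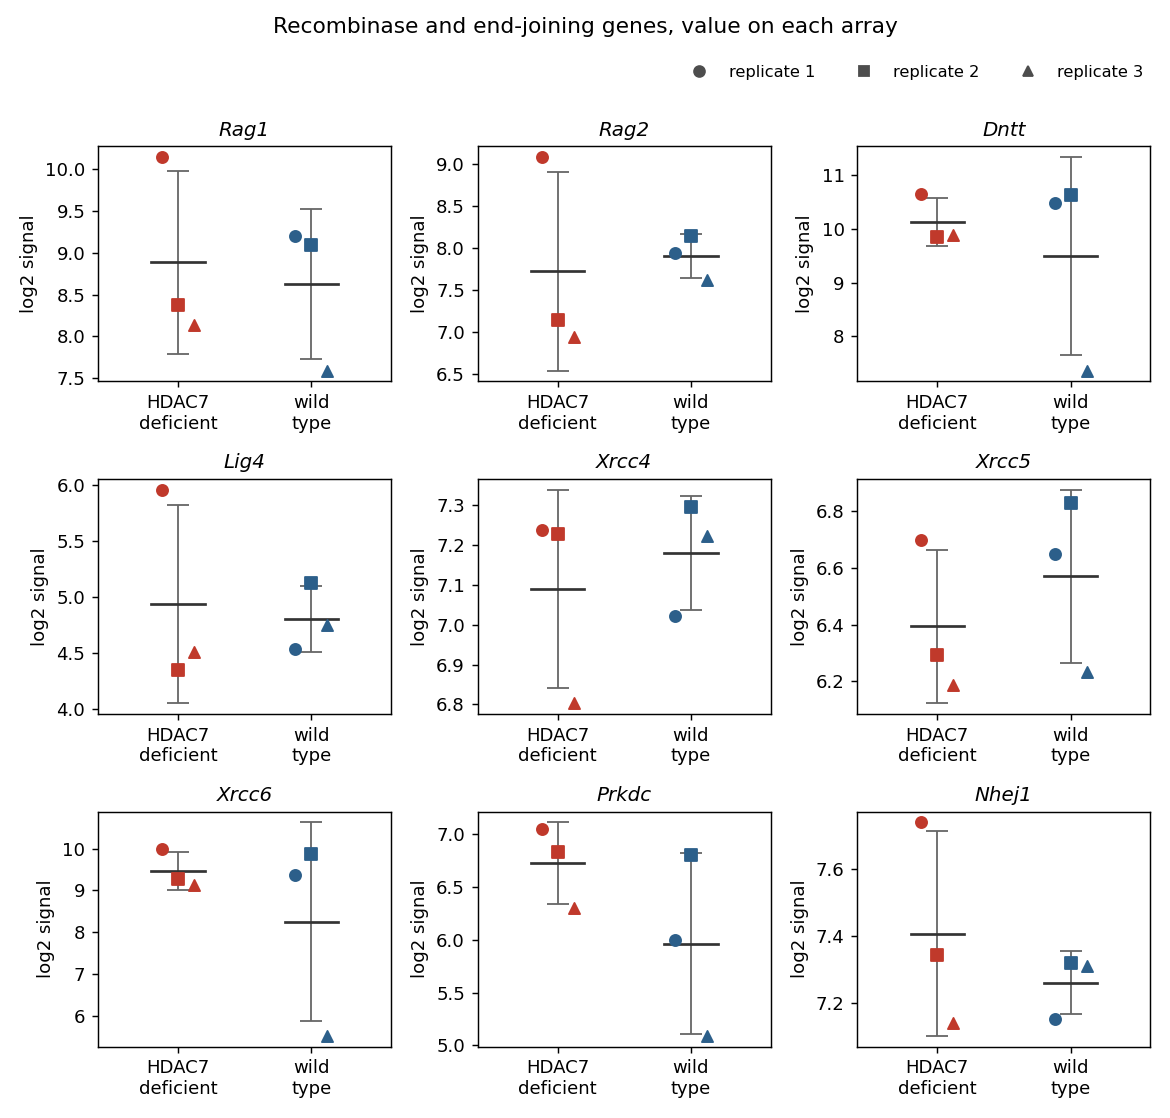
Log2 signal of the 9 measured genes on each array (points, shaped by replicate number, with y axes that do not start at 0), with group means and SD (bars) for HDAC7-deficient (left, red) and wild-type (right, blue) pro-B cells. HDAC7-deficient replicate 1 is the highest point of its group in all 9 panels, and wild-type replicate 3 is far below its group for Rag1, Dntt and Xrcc6.

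Rag1, the catalytic subunit of the recombinase, read 10.14, 8.38 and 8.14 on HDAC7-deficient replicates 1, 2 and 3, and 9.20, 9.09 and 7.59 on the wild-type replicates. HDAC7-deficient replicate 1 lay above every other array, and the other HDAC7-deficient arrays lay between wild-type replicate 3 and the other wild-type arrays. The group means were 8.89 ± 1.09 in HDAC7 deficient and 8.63 ± 0.90 in wild type (SD, n = 3 each), a limma difference of 0.26 ± 0.67 (SE) with a 95% interval of -1.33 to 1.85 and an adjusted p of 0.794. Leaving out wild-type replicate 3 gave -0.26, with an interval of -1.46 to 0.95.

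Rag2, the partner subunit, read 9.09, 7.15 and 6.94 on the HDAC7-deficient arrays and 7.94, 8.14 and 7.63 on the wild-type arrays. Replicate 1 was again the highest of all, while replicates 2 and 3 were below every wild-type array. The limma difference was -0.18 ± 0.58, with an interval of -1.56 to 1.20 and an adjusted p of 0.838. Without wild-type replicate 3 it was -0.32. Without HDAC7-deficient replicate 1 it was -0.86 (limma adjusted p = 0.654), and Rag2 and Lig4 were then the members whose groups did not overlap, both lower in HDAC7 deficient, as were 20.6% of all genes out of 34.7% that did not overlap in either direction.

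Both recombinase genes were thus split within the HDAC7-deficient group rather than between groups. HDAC7-deficient replicate 1 exceeded the mean of replicates 2 and 3 by 1.88 for Rag1 and 2.05 for Rag2, and by 1.74 to 2.08 for both genes after quantile normalization, median centring or cyclic loess. The SD of these 3 arrays was larger than that of 99.71% of all genes for Rag1 and 99.81% for Rag2. Wild-type replicates 1 and 2, both Xist-low, differed far less, with values 9.20 and 9.09 for Rag1 and 7.94 and 8.14 for Rag2. Wild-type replicate 3, which is Xist-high, was below both, at 7.59 for Rag1 and 7.63 for Rag2. The signal of Rag1 minus that of Rag2 was 0.94 to 1.26 on 5 arrays and -0.035 on wild-type replicate 3, where Rag1 was further below the other wild-type arrays than Rag2 was.

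Dntt, the terminal transferase that diversifies joints, read 10.64, 9.84 and 9.89 on the HDAC7-deficient arrays and 10.48, 10.63 and 7.37 on the wild-type arrays. The value of wild-type replicate 3 differed from the mean of the other wild-type arrays by -3.19, where the median for the 4274 genes with the highest mean signal was -1.37 (from 4 groups of genes divided by mean signal, called brightness groups here). The limma difference was 0.63 ± 0.87 with all arrays, with an interval of -1.43 to 2.70 and an adjusted p of 0.627. Without wild-type replicate 3 it was -0.43, with an interval of -0.97 to 0.10 and an adjusted p of 0.433. Among the HDAC7-deficient arrays replicate 1 was again the highest, above the mean of the others by 0.78, which is less than for the Rag genes. As for the Rag genes, every Xist-low array lay above every Xist-high array.

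**Figure D2:**
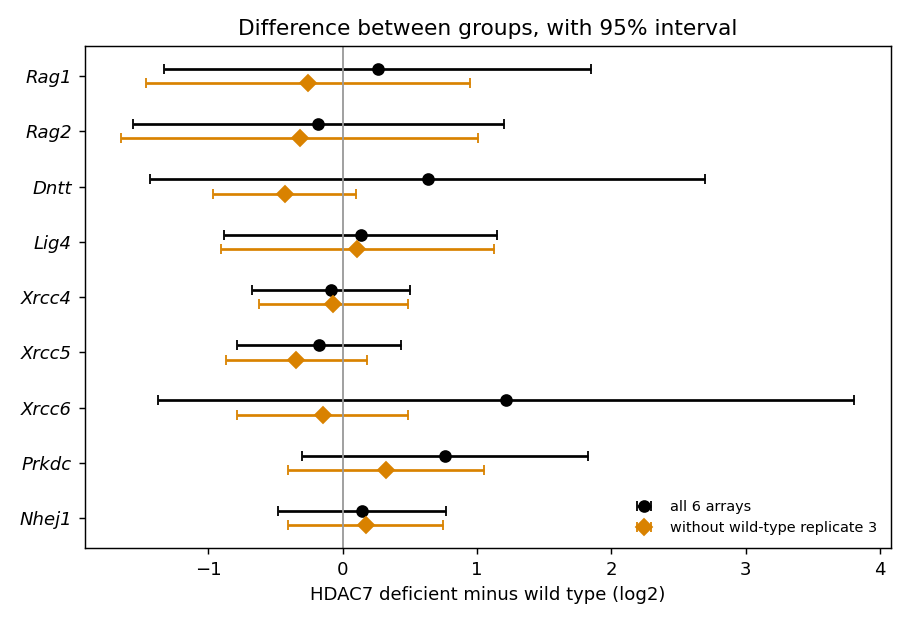
Difference between HDAC7-deficient and wild-type pro-B cells (x axis, log2) for each measured gene, as the limma estimate with its 95% interval, from all 6 arrays (black circles) and without wild-type replicate 3 (orange diamonds). Every interval includes 0, and the estimates for Rag1, Dntt and Xrcc6 change sign when that array is left out.

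Among the genes that hold DNA ends, Xrcc6, which encodes Ku70, read 9.99, 9.26 and 9.14 on the HDAC7-deficient arrays and 9.36, 9.86 and 5.51 on the wild-type arrays. The 5 arrays other than wild-type replicate 3 lay within 9.14 to 9.99. The limma difference of 1.22 ± 1.09 (adjusted p = 0.486) became -0.15, with an interval of -0.79 to 0.49, without that array. A second, dimmer Xrcc6 probe set (1428504_PM_at) read 6.55, 6.78 and 6.73 on the HDAC7-deficient arrays and 6.01, 6.29 and 6.29 on the wild-type arrays. On this probe set wild-type replicate 3 was level with replicate 2, and the groups did not overlap. Its difference was 0.49 ± 0.21 with a limma adjusted p over all probe sets of 0.354, where 0% of probe sets passed and groups did not overlap for 26.4% of them. Without wild-type replicate 3 its difference was 0.54. The Xrcc6 probe sets therefore disagreed on wild-type replicate 3, which differed from the mean of the other wild-type arrays by -4.10 on the brighter one and 0.14 on the dimmer one.

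Xrcc5, which encodes the Ku80 partner, read 6.70, 6.29 and 6.19 on the HDAC7-deficient arrays and 6.65, 6.83 and 6.23 on the wild-type arrays. The limma difference was -0.18 ± 0.26 (adjusted p = 0.644), with an interval of -0.79 to 0.43, and -0.34 without wild-type replicate 3. Prkdc, the DNA-dependent kinase recruited by Ku, read 7.05, 6.84 and 6.30 on the HDAC7-deficient arrays and 6.0, 6.80 and 5.09 on the wild-type arrays. The wild-type arrays were spread over a wider range than the HDAC7-deficient ones, and wild-type replicate 2 overlapped them. Prkdc had the lowest adjusted p of the members, 0.394, for a limma difference of 0.76 ± 0.45 with an interval of -0.30 to 1.83. Without wild-type replicate 3 the difference was 0.33 (adjusted p = 0.665). When arrays were weighted gene by gene, a setting added after the data were seen, Prkdc passed (limma adjusted p = 0.00604, difference 0.74), as did 49.4% of all genes, with a weight of 8.68 for wild-type replicate 1 and 0.07 for wild-type replicate 3.

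Of the ligation genes, Lig4, the ligase of end joining, read 5.96, 4.35 and 4.51 on the HDAC7-deficient arrays and 4.53, 5.12 and 4.75 on the wild-type arrays. Replicate 1 of the HDAC7-deficient group stood above all others, by 1.53 over the mean of replicates 2 and 3, and the SD of the group was larger than that of 99.29% of genes. These are dim values: the array's 23 nonspecific control probe sets had medians of 3.70 to 3.99 and reached 4.81 to 6.81, so it is not known whether Lig4 was above background. The limma difference was 0.13 ± 0.43 (adjusted p = 0.835), with an interval of -0.88 to 1.15, and 0.11 without wild-type replicate 3.

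Xrcc4, the scaffold that binds ligase IV, had the smallest difference of the 9 members, with 7.24, 7.23 and 6.80 on the HDAC7-deficient arrays and 7.02, 7.30 and 7.22 on the wild-type arrays. The limma difference was -0.09 ± 0.25 with an interval of -0.68 to 0.50 (adjusted p = 0.809), and -0.07 without wild-type replicate 3. Its second probe set (1424602_PM_s_at), at 4.63 to 5.10, had a difference of 0.14. Nhej1, the XLF factor that aids the ligase, read 7.74, 7.34 and 7.14 on the HDAC7-deficient arrays and 7.15, 7.32 and 7.31 on the wild-type arrays. The limma difference was 0.15 ± 0.26 with an interval of -0.48 to 0.77 (adjusted p = 0.708), and 0.17 without wild-type replicate 3. Its dimmer probe set (1425651_PM_at) lay at 4.19 to 4.42 on 5 arrays and at 5.03 on wild-type replicate 3, and gave -0.28. The signs of the paired probe sets thus differed for Xrcc4 and Nhej1, and no difference passed on any of them.

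**Figure D3:**
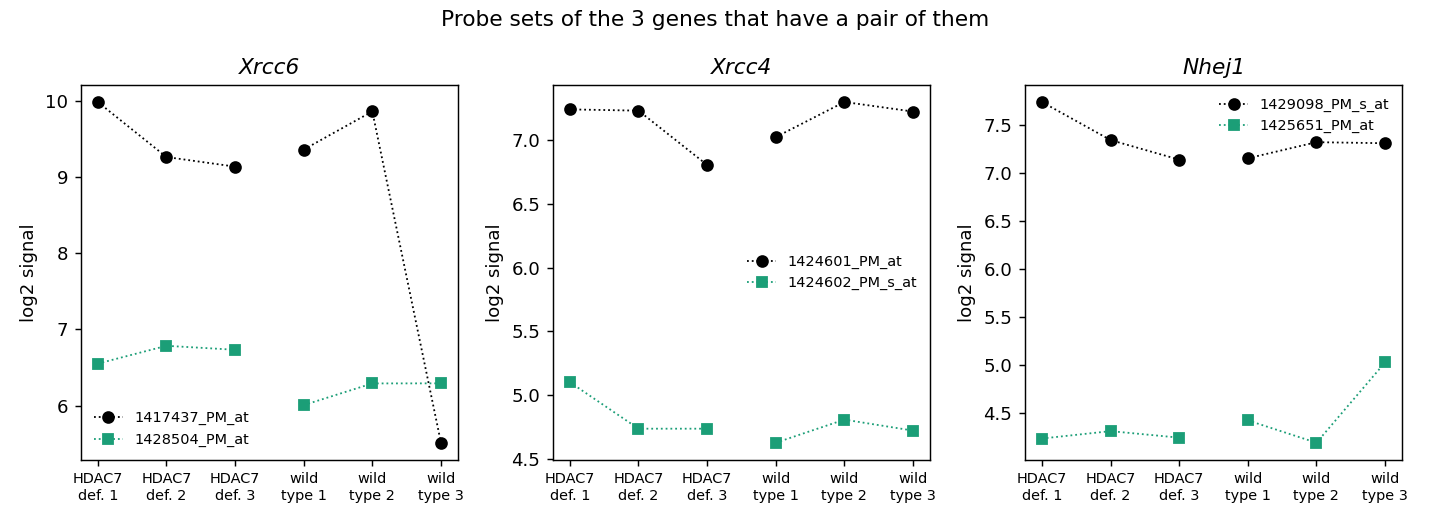
Log2 signal of both probe sets of Xrcc6, Xrcc4 and Nhej1 on the 6 arrays, HDAC7 deficient at left and wild type at right, with dotted lines joining arrays of a group only as a guide. The brighter Xrcc6 probe set drops to 5.51 on wild-type replicate 3, where the dimmer one stays at 6.29.

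HDAC7-deficient replicate 1 was the highest of its group for 9 of 9 members, a position it held for 36.1% of all genes, and the highest of all 6 arrays for 7 of 9, against 20.9% of all genes. These counts are for the brightest probe set of each gene; on the dimmer probe sets of Xrcc6 and Nhej1 replicate 1 was the lowest of its group, and on that of Xrcc4 the highest. The excess over the mean of replicates 2 and 3 ran from 0.22 for Xrcc4 to 2.05 for Rag2, and the medians of all genes in the same brightness group lay between -0.09 and 0.10. For Xrcc4, replicates 1 and 2 differed by no more than 0.01. Wild-type replicate 3 was the lowest of all arrays for 4 of 9 members (Rag1, Dntt, Xrcc6 and Prkdc), and for 37.8% of all genes.

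**Figure D4:**
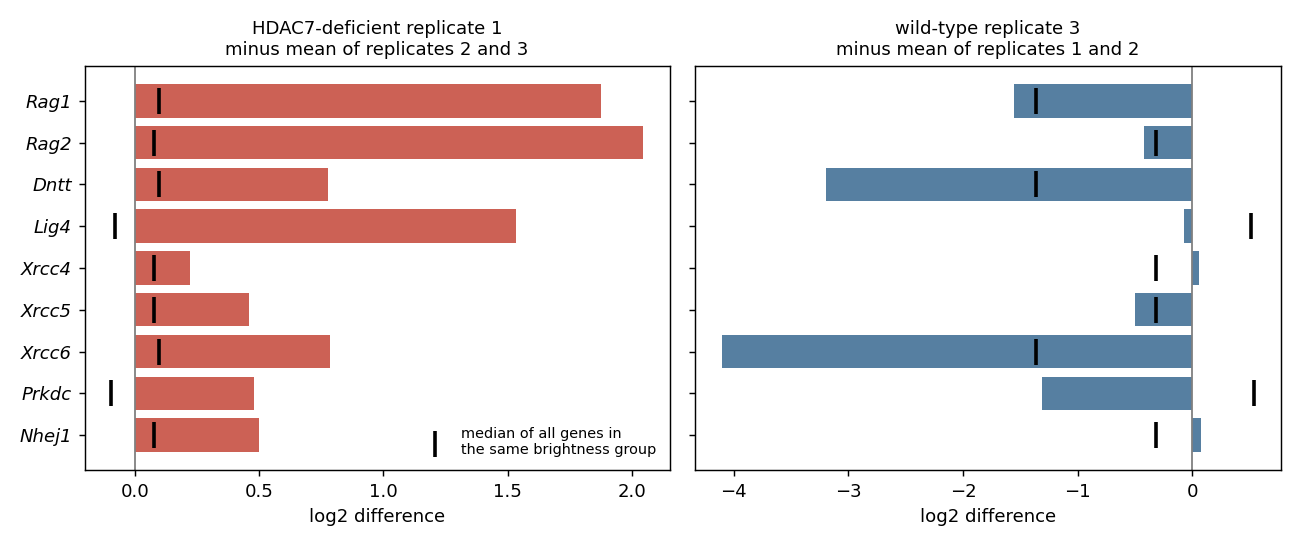
Log2 difference of HDAC7-deficient replicate 1 from the mean of its group's other arrays (left, red bars) and of wild-type replicate 3 from the mean of its group's other arrays (right, blue bars), with the median over all genes in the same brightness group as a black tick. Rag1, Rag2 and Lig4 have red bars of 1.53 to 2.05, and Dntt and Xrcc6 have blue bars of -3.19 and -4.10.

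Markers of cell types moved with this division of the HDAC7-deficient arrays. Of 11 measured B cell precursor markers 10 were highest on HDAC7-deficient replicate 1 within the group, with a mean log2 signal of 9.89 there against 9.33 and 9.30 on replicates 2 and 3, and 8.46 to 9.77 on the wild-type arrays. Cd79b, a receptor signalling chain, read 10.75, 9.98 and 9.88 on the HDAC7-deficient arrays and 10.23, 10.59 and 8.15 on the wild-type arrays. Pax5, the B cell commitment factor, read 10.28, 9.60 and 9.40 on the HDAC7-deficient arrays and 9.18, 9.85 and 7.78 on the wild-type arrays. All 14 measured proliferation genes were likewise highest on replicate 1, with means of 10.15, 9.70 and 9.64 on the HDAC7-deficient arrays and 8.64 to 10.21 on the wild-type arrays. Markers of several other cell types were lowest on replicate 1, a position it held for 38.9% of all genes. All 8 plasmacytoid dendritic cell markers were lowest there within the group (means 9.58, 10.26 and 10.11, against 7.30 to 9.66 in wild type), as were 11 of 12 macrophage and neutrophil markers (9.44, 10.07 and 9.95, against 8.79 to 9.50 in wild type), 6 of 9 T cell markers (6.85, 7.32 and 7.17, against 6.67 to 6.998) and 6 of 8 erythroid markers (6.47, 7.50 and 7.42, against 6.78 to 6.99). Among the T cell markers, replicate 1 differed from the mean of replicates 2 and 3 most for Cd8a (-1.29) and Cd4 (-1.12). The differences for Cd3d, Cd3e and Cd3g were -0.25, -0.22 and -0.03, and that for Cd28 was 0.06. Natural killer cell markers had means of 8.74, 8.98 and 8.58, against 7.17 to 8.88 in wild type, and 3 of 10 were lowest on replicate 1. Later B cell markers had means of 7.62, 8.09 and 7.98, against 7.56 to 8.32 in wild type, and 7 of 9 were lowest on replicate 1. The 8.32 belonged to wild-type replicate 3, whose mean for B cell precursor markers, 8.46, was the lowest of all arrays. Most of those precursor markers lay in the brightest group of genes, whose median there was -1.37 from the mean of the other wild-type arrays. Ms4a1, chosen after its values were seen, read 11.35 there and 4.57 to 7.40 elsewhere. On wild-type replicate 3 Ms4a1 exceeded the mean of the other wild-type arrays by 6.39, and Fcer2a, Cr2, Il2ra and Cd22 did so by 0.28 to 1.52. Ciita, H2-Aa, H2-Ab1 and Cd40 were instead below the mean of the other wild-type arrays there. In sorted bulk samples, fewer cells of a type and less RNA per cell cannot be told apart, and the part of these markers in the Rag1, Rag2 and Lig4 values was not tested. The same division separates HDAC7-deficient replicate 1 (Xist-low) from replicates 2 and 3 (Xist-high), so it cannot be told apart from that of Xist and of the spike-ins.

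**Figure D5:**
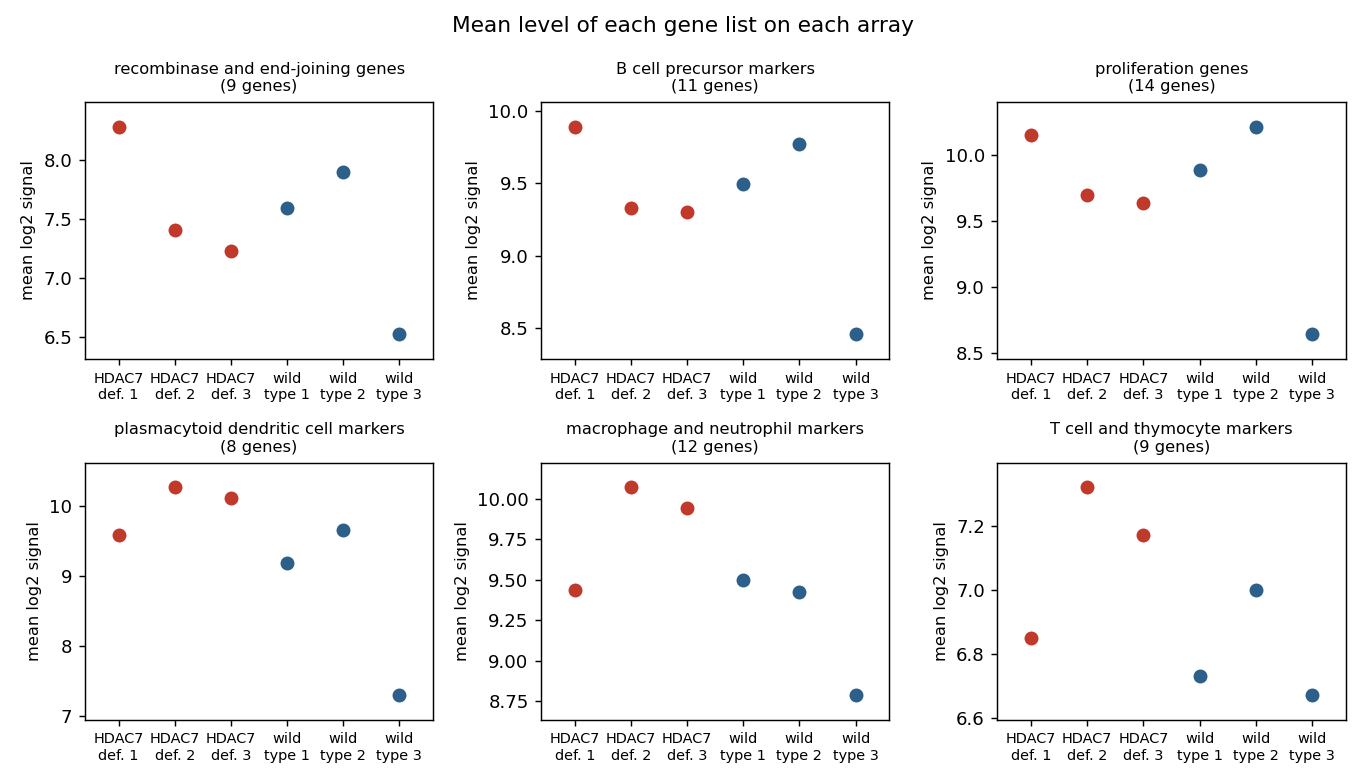
Mean log2 signal of 6 gene lists on each array, HDAC7 deficient (red) at left and wild type (blue) at right, with y axes that do not start at 0. Recombinase and end-joining genes, B cell precursor markers and proliferation genes are highest of the red points on replicate 1, and the 3 lists of other cells are lowest there.

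Within the Xist-low arrays, HDAC7-deficient replicate 1 minus the mean of wild-type replicates 1 and 2 was 0.99 for Rag1, 1.04 for Rag2, 1.13 for Lig4, 0.64 for Prkdc, 0.50 for Nhej1, 0.37 for Xrcc6, 0.09 for Dntt, 0.08 for Xrcc4 and -0.04 for Xrcc5. Within the Xist-high arrays, the mean of HDAC7-deficient replicates 2 and 3 minus wild-type replicate 3 was 0.67 for Rag1, -0.58 for Rag2, -0.33 for Lig4, 1.48 for Prkdc, -0.07 for Nhej1, 3.69 for Xrcc6, 2.50 for Dntt, -0.20 for Xrcc4 and 0.01 for Xrcc5. Rag1, Dntt, Xrcc6 and Prkdc were higher in HDAC7 deficient in both sets, and the signs of the other 5 members differed between the sets. In the brightest group of genes, which holds Rag1, Dntt and Xrcc6, the medians of all genes were 1.44 (Xist-high) and 0.14 (Xist-low). The Xist-high value of Rag1 and the Xist-low value of Dntt were thus below those medians. In the brightness group of Prkdc the medians were -0.71 (Xist-high) and -0.26 (Xist-low). The Xist-high values rest on the wild-type array that stood apart, and neither set gives 2 arrays of both genotypes. The interaction of genotype with this division passed for 4 of 9 members and 27.3% of all genes.

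Of all genes 48% had a positive difference, or 43.2% without wild-type replicate 3. Their median with all arrays was -0.30 in the dimmest group of genes and 0.56 in the brightest. Other genes of end joining and its cofactors had 8 of 10 measured members with a positive difference, with a median of 0.36, or 0.15 without wild-type replicate 3, and 0 passed in either direction. The groups did not overlap for 3 of them, Aptx, Polm and Paxx (the last named after its values were seen), all higher in HDAC7 deficient, as were 9.45% of all genes. Aptx, which encodes aprataxin and cleans abortive ligation ends, read 6.46, 6.66 and 6.48 in HDAC7 deficient and 5.56, 6.27 and 5.19 in wild type, a difference of 0.86 ± 0.30 (limma adjusted p = 0.377). Polm, a polymerase related to terminal transferase, read 8.07, 7.93 and 7.47 in HDAC7 deficient and 6.88, 7.43 and 6.75 in wild type, a difference of 0.80 ± 0.31 (limma adjusted p = 0.377). Tdp2, which removes trapped topoisomerase from ends, and the helicase gene Wrn had differences of 0.69 and 0.80, or 0.59 and 0.29 without wild-type replicate 3. Aptx and Polm were also the 2 at an unadjusted p under 0.05, where 3.52% of all genes were higher at that level, and without wild-type replicate 3 their differences were 0.62 and 0.66.

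Genes that signal DNA breaks had 10 of 11 measured members with a positive difference and a median of 0.46, or 8 of 11 and 0.13 without wild-type replicate 3. Of all genes 48% were positive, or 43.2% without that array. Most of these break-signalling genes lay in the brighter groups of genes, whose medians over all genes were 0.25 and 0.56, or 0.08 and 0.06 without that array. The sensor genes Nbn and Rad50 had differences of 0.48 and 0.58, the kinase gene Atm 0.69 and the shieldin subunit gene Mad2l2 0.76, and without wild-type replicate 3 these were 0.33, 0.22, 0.14 and 0.13. The groups did not overlap for 1 of the 11, Trp53bp1, a chromatin-bound break factor named after its values were seen, which was higher in HDAC7 deficient by 0.17, as were 9.45% of all genes without overlap. The 4 measured genes of alternative end joining (Lig1, Parp1, Xrcc1 and Lig3) were positive with all arrays, with a median of 0.44. Without that array 3 of the 4 were negative, with a median of -0.13. All but Xrcc1 lay in the brightest group of genes. Lig1, the replicative ligase, read 10.66, 10.35 and 10.27 in HDAC7 deficient and 10.67, 10.91 and 6.97 in wild type. Homologous recombination genes were positive for 6 of 10, with a median of 0.12, or 4 of 10 and -0.06 without that array. Rad51b, a paralogue of the strand-exchange gene, had a difference of 0.57 and the translocase gene Rad54l of -0.72, each with groups that did not overlap (9.45% of all genes higher and 16.8% lower), and without wild-type replicate 3 these were 0.43 and -0.41. Rad51d and Rad51c had 0.77 and -0.49, or 0.26 and -0.64 without that array. None of these 25 genes passed an adjusted p of 0.05 in limma, with or without wild-type replicate 3, and 0 of them with all arrays and 1, Lig1, without that array reached an unadjusted p under 0.05.

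Around the Rag locus, Iftap, which overlaps Rag2 on the reference, read 7.34, 6.77 and 6.47 on the HDAC7-deficient arrays and 6.34, 6.92 and 6.08 on the wild-type arrays. It was highest on HDAC7-deficient replicate 1, by 0.72 over the mean of replicates 2 and 3. Traf6, a signalling ligase gene, read 9.19, 9.40 and 9.03 in HDAC7 deficient and 8.46, 9.17 and 7.48 in wild type, and Prr5l read 5.62, 5.73 and 5.50 in HDAC7 deficient and 5.04, 5.34 and 5.02 in wild type. Both were higher on HDAC7-deficient replicate 2 than on replicate 1, unlike Rag1, Rag2 and Iftap.

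Among 15 transcription factors known to act on the Rag genes, 12 had positive differences, with a median of 0.37, or 10 and 0.10 without wild-type replicate 3, and 0 passed in either fit. Positive differences were held by 48% of all genes, or 43.2% without that array. Most of the factors lay in the brighter groups of genes, whose medians over all genes were 0.25 and 0.56, or 0.08 and 0.06 without that array. Spi1, which encodes PU.1, had a difference of 0.80, Bcl11a 0.74, Foxo3 0.83 and Tcf3, which encodes E2A, 0.73, and without wild-type replicate 3 these were 0.33, 0.27, 0.23 and 0.20. Within the HDAC7-deficient group 11 of the 15 were highest on replicate 1. Myb, chosen after its values were seen, read 8.88, 7.94 and 7.61 on the HDAC7-deficient arrays, while Tcf3 read 9.91, 10.03 and 9.89 and Foxo1, also chosen after its values were seen, read 6.74, 6.61 and 6.0.

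The genes whose 6 values, centred on their own mean, lay closest to those of Rag1 were Ankrd33b, Rida and Exo5, with root mean square differences of 0.20, 0.22 and 0.26 (log2). Closest to Rag2 were Edaradd, Skp2 and Cmtm8, at 0.14, 0.16 and 0.17, and closest to Dntt were Slc25a51, Dut and Nop16, at 0.09, 0.12 and 0.12. Rag2 was the 248th closest to Rag1 of 17096 other genes, at 0.45. The likeness is over 6 arrays that share the array that stood apart and the division by Xist.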

How the data were processed

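Per the labels' protocols, 25 ng of total RNA per sample was amplified by whole transcriptome amplification, labelled with biotin and hybridised to Affymetrix mouse perfect-match strip arrays. The authors deposited 1 log2 value per probe set and array. The log2 scale was read from the values, and the normalization is not given in the sources used here. The table held 45141 probe sets, 104 of them controls. A platform annotation gave 28898 probe sets 1 symbol, 551 several and 15588 none, and 28689 were updated by gene number to RefSeq symbols of GRCm38.p6, whose gene table served for names and neighbours.

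The comparison used limma 3.58.1 under R 4.3.3 (trended eBayes, two-sided, Benjamini-Hochberg over 17097 genes, or over 45037 probe sets for single probe sets, with no filter on dim values). An adjusted p in the text is from these fits. Precision is limited by the number of arrays; with 3 against 3, the smallest exact permutation p is 0.1. The labels call the samples biological replicates without naming mice. Same-numbered samples were not treated as pairs in the main fit. The correlations of their deviations from group means were 0.10, 0.21 and 0.48. HDAC7-deficient replicates 2 and 3 correlated best with the wild-type array of the same number, and replicate 1 with wild-type replicate 2, at 0.36. With 3 arrays per group these values cannot settle whether samples were paired. The division by spike-ins (14 probe sets) and Xist was taken from the data. Named genes were all members and up to 4 genes per list by smallest p. Members, lists, tests and alternatives were chosen with earlier results of these data known. Plots used matplotlib 3.10.9 and Python 3.11.15.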

Additional observations from a re-analysis of the deposited data

Results flagged for a closer look

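The difference between HDAC7-deficient and wild-type cells was set against the division of the arrays by Xist and spike-ins with an interaction term in limma. It differed between Xist-high and Xist-low arrays for 4 of the 9 measured members, as it did for 27.3% of all genes. The interaction, Xist-high minus Xist-low, was -1.63 for Rag2 (limma adjusted p = 0.0129), -1.46 for Lig4 (0.00722), 2.41 for Dntt (2.80e-06) and 3.31 for Xrcc6 (1.66e-05). For Dntt and Xrcc6 the Xist-high side was the larger, and for Rag2 and Lig4 the genotype difference was negative among the Xist-high arrays and positive among the Xist-low arrays. The residual spread comes from HDAC7-deficient replicates 2 and 3 and wild-type replicates 1 and 2 alone. Wild-type replicate 3 and HDAC7-deficient replicate 1 each stand alone in their set, so division, genotype and single array cannot be told apart here.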

How the results depend on the processing

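No member passed an adjusted p of 0.05 under any alternative that was run other than gene-by-gene array weights, which called 1 member (Prkdc) and 8449 of all genes. The default array weights were not used because the estimate stopped before convergence. The count of all genes called, 0 with all arrays, was 1 with the replicate block and 4 with the Xist and spike-in division as a block without wild-type replicate 3; the replicate block changed no member's call. Signs were unstable. Rag1 was -0.10 after quantile normalization, -0.30 after cyclic loess and -0.60 with array weights. Rag2 was 0.23 with the division as a block and 1.04 when that block was combined with leaving out wild-type replicate 3. Array weights gave Dntt -0.51, Xrcc6 -0.014 and Xrcc4 0.12. Xrcc4 was also 0.046 after median centring, 0.079 with that block and array choice, and 0.025 as the mean of its probe sets. Nhej1 was -0.24 after quantile normalization, -0.20 after cyclic loess and -0.069 as the mean of its probe sets. The cause of these shifts was not tested. Leaving out 1 array at a time gave ranges of -0.37 to 0.63 for Rag1, -0.86 to 0.21 for Rag2, -0.43 to 1.20 for Dntt, -0.38 to 0.43 for Lig4, -0.17 to 0.054 for Xrcc4, -0.15 to 2.03 for Xrcc6 and -0.020 to 0.28 for Nhej1, while Xrcc5 (-0.34 to -0.05) and Prkdc (0.33 to 1.18) kept their sign. The count of members whose groups did not overlap, 0 with all arrays, was 1 (Xrcc4) after quantile normalization and 1 after cyclic loess, where 24.7% and 23.3% of all genes did not overlap, and 0 to 2 with 1 array left out, where 28.2% to 61.2% did not. The filters on dim genes left out Lig4 at 25% and 50% and Prkdc at 50%. Median centring moved the median difference of all genes to 0.10. Lig4 and the dimmer probe sets of Xrcc4 and Nhej1 lay within the range of the nonspecific controls, other than Nhej1 on wild-type replicate 3, which limits what their values show. On single arrays other members did too. Xrcc5 read 6.293 on HDAC7-deficient replicate 2, where the highest control read 6.335. On wild-type replicate 2, Prkdc read 6.804 and the dimmer Xrcc6 probe set 6.29, where the highest control read 6.813.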
